A study of Arabidopsis thaliana with 12 samples.

Results

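This account describes 4 nuclear genes of plastid carbon fixation and light-dependent redox control in *Arabidopsis thaliana*: PRK (AT1G32060), SBPASE (AT3G55800), AT2G04700 and SRX (AT1G31170). Each is represented by 1 probe that the platform annotation assigns to that gene alone, out of 692 probes of 1 gene and 3439 probes in all. The genes were grouped by function and selected on their intensities in these same samples, that is on the differences between the groups and on readings at 0. Their differences are therefore given as descriptions, without p-values, and are not evidence that the pathway as such changed.

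The plant material came from ecotype Landsberg. In one group of 6 samples, total RNA was taken from the laf6 mutant, which lacks atABC1, after dark adaptation followed by 1 h of normal light (laf6_L_1h). In the other group of 6 samples it was taken from dark-adapted wild type plants (WT_D). Genotype and light differ together between the groups, so their contributions cannot be told apart. The labels name 1 mutant line and give no age, tissue or number of plants.

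In the Calvin cycle, plastid enzymes fix CO2 onto ribulose bisphosphate and regenerate that acceptor from sugar phosphates. SBPASE removes a phosphate from sedoheptulose bisphosphate on the way to the acceptor, and PRK makes the acceptor itself from ribulose phosphate and ATP. Both enzymes are switched on in light, when thioredoxins reduce disulfide bonds in them. The thioredoxins receive their electrons from ferredoxin through ferredoxin-thioredoxin reductase, an iron-sulfur enzyme whose catalytic subunit is encoded by AT2G04700. SRX encodes sulfiredoxin, which repairs peroxiredoxins that have been overoxidised by peroxide. The atABC1 protein, also called SUFB, belongs to the plastid machinery that assembles iron-sulfur clusters.

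Values are deposited spot intensities on a linear scale with arbitrary units, and each probe is compared with itself across samples, not with other probes. Within each group the samples with numbers 1 and 2 were treated as paired readings and averaged, likewise 3 with 4 and 5 with 6, which gave 3 replicates per group. The labels do not say that the samples came from separate plants, so the spread between them may be technical. The median intensity of a sample was 0.161 to 0.170 in laf6_L_1h and 0.218 to 0.289 in WT_D. Between 14.6% and 19.3% of probes were listed at 0 in a laf6_L_1h sample, against 13.0% to 15.7% in a WT_D sample. The median probe difference, laf6_L_1h minus WT_D, was -0.54 on the log2 scale as deposited and -0.08 after quantile normalisation. The number of arrays limits the precision of every value.

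PRK was brighter in illuminated laf6 than in dark wild type in every reading. Its intensity was 2.22, 2.18, 2.24, 2.25, 1.58 and 2.02 in laf6_L_1h samples 1 to 6, and 0.859, 0.896, 0.541, 0.499, 0.502 and 0.712 in WT_D samples 1 to 6. The groups did not overlap: the lowest laf6_L_1h reading was 1.77 times the highest WT_D reading. Within laf6_L_1h, 4 readings lay close together and sample 5 stood below the rest. Within WT_D, samples 1 and 2 were the highest and samples 3, 4 and 5 the lowest. The averaged replicates had a mean of 2.08 ± 0.244 in laf6_L_1h and 0.668 ± 0.186 in WT_D (SD, n = 3 each), a ratio of 3.12 as deposited. When samples of the same number were set against each other, laf6_L_1h over WT_D, the ratio ranged from 2.43 for number 2 to 4.52 for number 4, with a median of 2.99. On the log2 scale the difference was 1.67 as deposited and 1.93 ± 0.30 (SE) after quantile normalisation. Relative to the median of its own sample, PRK was at 9.41 to 13.9 times that median in laf6_L_1h and at 1.73 to 3.62 times in WT_D.

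SBPASE, the other Calvin cycle enzyme of the 4, gave almost no readable signal. It was listed at 0 in laf6_L_1h samples 1 to 5 and at 0.357 in sample 6, and it was listed at 0 in all 6 WT_D samples. The single value above 0 had no counterpart in sample 5, with which it was averaged. On the array, 78 probes including that of SBPASE were at 0 in 11 of 12 readings, and 87 probes were at 0 in all 12. No fold or direction is given for SBPASE.

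**Figure D1:**
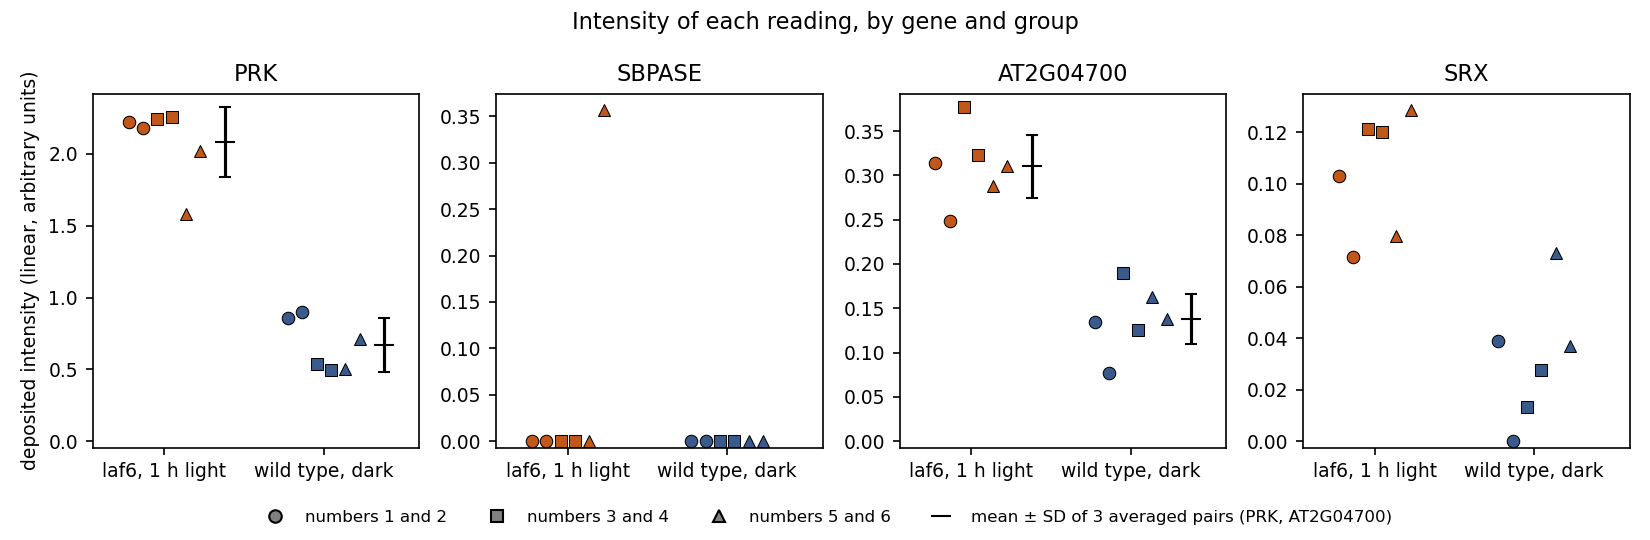
Deposited intensity (linear, arbitrary units) of PRK, SBPASE, AT2G04700 and SRX in each of the 6 laf6_L_1h and 6 WT_D readings, with marker shapes for the averaged pairs and bars for the mean ± SD of 3 averaged replicates in the panels of PRK and AT2G04700. PRK and AT2G04700 do not overlap between the groups, SBPASE is above 0 in 1 reading, and for SRX the lowest laf6_L_1h reading (0.0716) lies just under the highest WT_D reading (0.0733).

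AT2G04700, the reductase subunit that hands electrons on to thioredoxins, was also brighter in illuminated laf6 in every reading. Its intensity was 0.314, 0.248, 0.377, 0.323, 0.288 and 0.311 in laf6_L_1h samples 1 to 6, and 0.134, 0.0771, 0.190, 0.126, 0.163 and 0.138 in WT_D samples 1 to 6. The groups did not overlap, and the lowest laf6_L_1h reading was 1.31 times the highest WT_D reading. In both groups sample 2 was the lowest and sample 3 the highest. The averaged replicates had a mean of 0.310 ± 0.0357 in laf6_L_1h and 0.138 ± 0.0282 in WT_D (SD, n = 3 each), a ratio of 2.25. Ratios between samples of the same number ranged from 1.77 to 3.22. The log2 difference was 1.19 as deposited and 1.79 ± 0.20 (SE) after quantile normalisation. Between these 2 scalings it moved more than that of PRK. With replicates centred on their medians it was 1.79, whereas that of PRK was 2.27, so the order depended on the scalings compared. Its readings in laf6_L_1h lay at 1.48 to 2.35 times the sample median, whereas those in WT_D lay at 0.312 to 0.731 times.

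SRX, the sulfiredoxin, had low readings in both groups and the widest spread of the 3 genes with a usable signal. Its intensity was 0.103, 0.0716, 0.122, 0.120, 0.0798 and 0.129 in laf6_L_1h samples 1 to 6. In WT_D samples 1 to 6 it was 0.0390, 0, 0.0135, 0.0276, 0.0733 and 0.0371. As deposited the groups overlapped, because WT_D sample 5 exceeded laf6_L_1h sample 2. The averaged replicates were 0.0873, 0.121 and 0.104 in laf6_L_1h and 0.0195, 0.0206 and 0.0552 in WT_D, and these did not overlap. For the 5 numbers with a WT_D reading above 0, the ratio of laf6_L_1h to WT_D ranged from 1.09 for number 5 to 9.02 for number 3, with a median of 3.47.

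The size of the SRX difference depended on the scaling and on how zeros and low values were treated. It was 1.88 on the log2 scale as deposited and 2.98 ± 0.61 (SE) after quantile normalisation. With a pseudocount of 0.0545, the 25th percentile of the table, added before the logarithm in place of a floor for zeros, it was 1.31 ± 0.17 (SE). With the 12 samples left unaveraged it was 5.59 ± 1.70 (SE). In that setting the WT_D reading at 0 entered on its own. WT_D samples 3, 4 and 6, above 0 as deposited, also entered singly, at -9.59, -8.76 and -7.45 on the normalised log2 scale. How much each of these readings contributed was not tested. Relative to the median of each sample, SRX was at 0.426 to 0.758 in laf6_L_1h and at 0 to 0.329 in WT_D, without overlap. The normalised log2 readings did not overlap either, at -3.41 to -2.67 in laf6_L_1h and at or below -4.27 in WT_D.

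**Figure D2:**
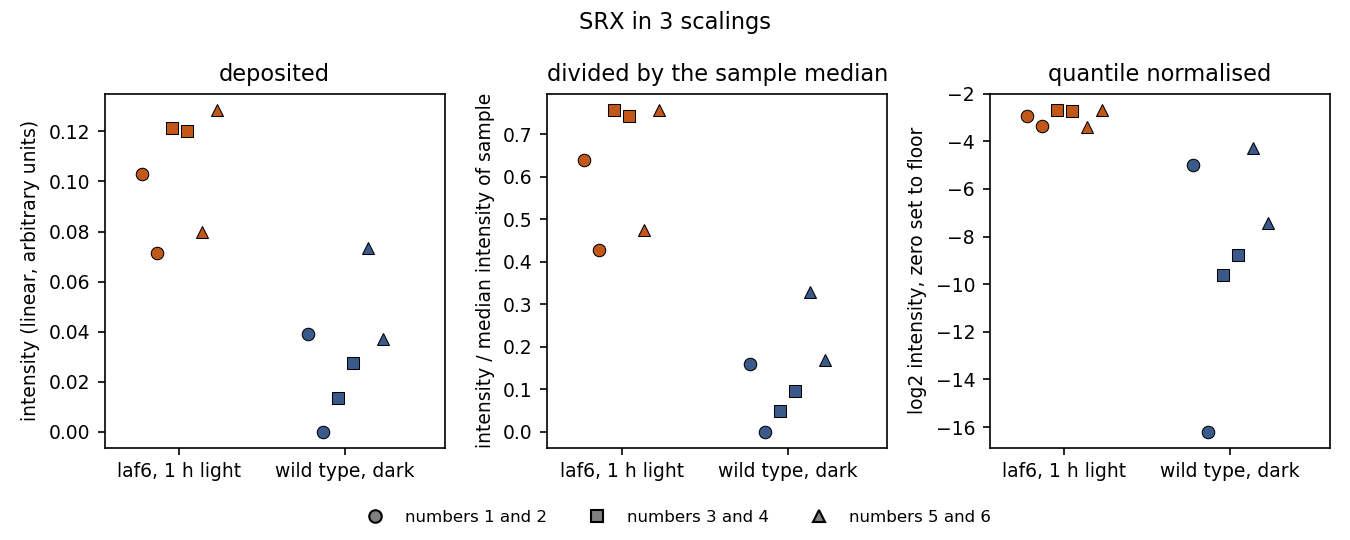
SRX in each reading as deposited (linear intensity), divided by the median intensity of its sample, and as quantile-normalised log2 intensity with the zero placed at the smallest reading above 0. The 6 laf6_L_1h readings overlap the 6 WT_D readings as deposited and lie above them in the other panels, where the WT_D readings are spread widely. Normalisation set some close readings far apart. WT_D samples 1 and 6 were at 0.0390 and 0.0371 as deposited and at -4.99 and -7.45 after it.

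Paired readings agreed best for PRK and least for SRX. The difference between the readings of a pair, as a percentage of their mean, had a median of 6.19% for PRK, 20.2% for AT2G04700 and 56.3% for SRX over 6 pairs each. For PRK the pairs of samples 5 and 6 were the least close, at 24.4% in laf6_L_1h and 34.6% in WT_D. The coefficient of variation over 6 readings was 12.4% in laf6_L_1h and 27.0% in WT_D for PRK, and 13.7% in laf6_L_1h and 27.4% in WT_D for AT2G04700. The 200 probes nearest to PRK in mean intensity over all 12 readings had a median coefficient of 15.0% in laf6_L_1h and 15.8% in WT_D. For the 200 probes nearest to AT2G04700 these medians were 33.0% in laf6_L_1h and 27.8% in WT_D. SRX had 22.8% in laf6_L_1h and 79.3% in WT_D, against 84.1% in laf6_L_1h and 66.9% in WT_D for the 200 probes nearest to it. The nearest probes were chosen on both groups together, whereas PRK, AT2G04700 and SRX had lower means in WT_D than in laf6_L_1h. These probes were therefore not matched to the brightness of the gene within a group.

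Across the array, the groups were compared with limma after quantile normalisation, with a call at a Benjamini-Hochberg adjusted p under 0.05. It called 333 of 3439 probes, or 9.68%, with 188 higher (5.47%) and 145 lower (4.22%) in laf6_L_1h. Of the 4 genes, PRK and AT2G04700 were among the probes called higher, and SBPASE and SRX were not called. Since the genes were selected with this outcome known, nothing is read from the count of 2. That fit did not pair the groups. With averaged replicates of the same number matched across the groups as a replicate block, limma called 13 probes (0.378%) and 0 of the 4 genes. With the same block and a pseudocount at the 25th percentile in place of the floor for zeros, it called 174 probes higher and 121 lower, PRK and AT2G04700 among the higher ones. Deposited readings of the groups did not overlap for 2 of the 4 genes, both higher in laf6_L_1h, where 4.54% of all probes were higher without overlap and 17.9% lower. In normalised readings this held for 3 of the 4 genes, against 7.97% of all probes higher and 7.73% lower. Because the genes were selected on these same differences, nothing is read from the counts without overlap either.

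**Figure D3:**
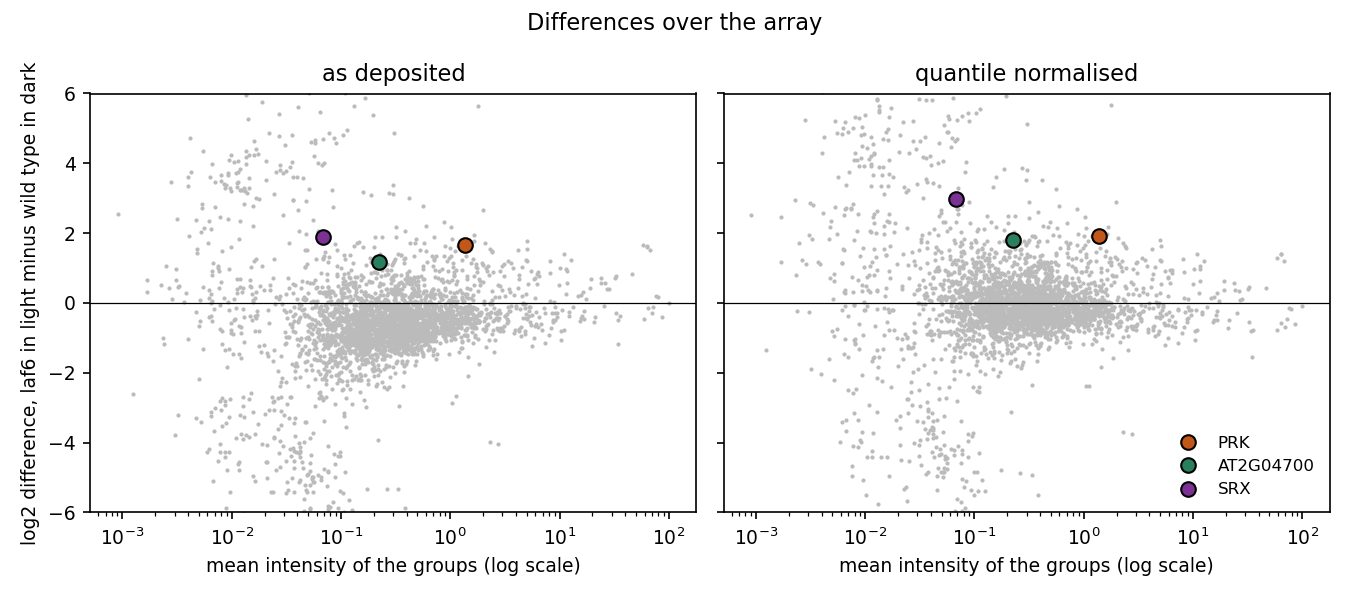
Log2 difference of each probe, laf6_L_1h minus WT_D, against its mean intensity (log scale), as deposited and after quantile normalisation, for the 3196 probes with a reading above 0 in both groups. PRK (1.67 as deposited, 1.93 normalised), AT2G04700 (1.19 and 1.79) and SRX (1.88 and 2.98) are marked. The vertical axis ends at 6 in either direction, which leaves out 91 dim probes as deposited and 88 after normalisation.

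Few other genes of these pathways could be read. Lists of Calvin cycle, ferredoxin-thioredoxin, peroxide and thiol redox, other thioredoxin-regulated and plastid iron-sulfur assembly genes held 94 loci. Of these, 7 had a probe of 1 gene and 9 more lay on probes of several genes, which were not used. The Calvin cycle list had 2 of 24 loci measured, which were PRK and SBPASE. The ferredoxin-thioredoxin list had 2 of 22, AT2G04700 and NTRC. The peroxide and thiol redox list had 2 of 32, SRX and AT3G52960. The list of other thioredoxin-regulated enzymes had 1 of 4, AT5G58330, and the iron-sulfur assembly list, which includes the gene of atABC1 itself, had 0 of 12. Among the 7 measured genes limma called PRK and AT2G04700 higher and none lower, beside 5.47% of all probes higher and 4.22% lower. Both belong to the 4 genes selected on these values, so nothing is read from this count. Over the 3 that are not among the 4 genes described here, the median log2 difference was -0.03 after normalisation and -0.77 as deposited, beside -0.08 and -0.54 over all probes.

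NTRC, a plastid thioredoxin reductase that uses NADPH in place of ferredoxin, differed between the groups by less than its SE after normalisation. Its readings were 0.196 at the lowest, 0.303 at the median and 0.419 at the highest in laf6_L_1h, and 0.344, 0.392 and 0.502 in WT_D. The readings overlapped, and the log2 difference was 0.08 ± 0.14 (SE, limma adjusted p = 0.785) on normalised and -0.41 on deposited values.

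AT5G58330, the NADP-dependent malate dehydrogenase, which exports reducing power from the plastid and is activated by thioredoxin, had lower deposited readings in laf6_L_1h. These were 0.0397 at the lowest, 0.0917 at the median and 0.127 at the highest in laf6_L_1h, against 0.166, 0.197 and 0.316 in WT_D. They did not overlap as deposited, where the log2 difference was -1.28 (limma adjusted p = 0.0417), but overlapped after normalisation, where it was -0.59 ± 0.27 (SE, adjusted p = 0.259). AT3G52960 had 0.0334, 0.0426 and 0.170 at the lowest, median and highest of laf6_L_1h, and 0.0224, 0.107 and 0.187 in WT_D. Its readings overlapped widely, and the log2 difference was -0.03 ± 0.68 (SE, limma adjusted p = 1.00) on normalised and -0.77 (adjusted p = 0.402) on deposited values.

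Of 10 light- and dark-responsive genes listed as a check of the light treatment, 0 had a probe of 1 gene, and 0 of 5 root and 0 of 5 seed markers had one. Among 7 green tissue markers PSAN, a photosystem subunit, was measured, at 5.50 to 8.82 in laf6_L_1h and 3.43 to 4.84 in WT_D (limma adjusted p = 0.0747). In total RNA from whole samples, a change in the share of green cells and a change in RNA per cell cannot be told apart.

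The 3 genes with a usable signal did not vary together within the groups in a uniform way. Pearson correlations of the deviations from the group means, over 12 normalised log2 readings that share samples and scaling, were -0.19 between PRK and AT2G04700, -0.15 between PRK and SRX, and 0.74 between AT2G04700 and SRX. Without the WT_D sample in which SRX was listed at 0, over 11 readings, they were 0.17, 0.43 and 0.41. The sign of both correlations of PRK thus turned with 1 sample.

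Among 515 other probes of 1 gene with at most 1 reading at 0, those whose deviations were most like those of PRK were AT3G15140 (r = 0.90), AT3G56010 (r = 0.87) and AT1G54500 (r = 0.83), and without that WT_D sample r was 0.88, 0.86 and 0.81. AT3G15140 had deposited readings of 0.872 to 1.11 in laf6_L_1h and 0.480 to 0.784 in WT_D, with a log2 difference of 1.06 ± 0.22 after normalisation (SE, limma adjusted p = 0.0524). AT1G54500 had 0.367 to 0.603 in laf6_L_1h and 0.223 to 0.398 in WT_D, with a log2 difference of 1.11 ± 0.26 (SE, limma adjusted p = 0.0708). AT3G56010 had 0.0333 to 0.134 in laf6_L_1h and 0 to 0.151 in WT_D, where 1 reading was at 0, and its groups overlapped (limma adjusted p = 0.417).

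For AT2G04700 the nearest were AT4G20690 (r = 0.87), AT2G41120 (r = 0.77) and SWAP70 (r = 0.76), with r of 0.77, 0.50 and 0.46 without that WT_D sample. For SRX they were FATB, a plastid acyl-ACP thioesterase (r = 0.92), SWAP70 (r = 0.92) and AT5G33390 (r = 0.90), with r of 0.72, 0.70 and 0.69 without it. None of these genes was called by limma after normalisation, with adjusted p-values from 0.130 to 0.918. SWAP70, near to both AT2G04700 and SRX by this measure, had a log2 difference of 0.10 ± 0.37 (SE, limma). AT4G20690, SWAP70, FATB and AT5G33390 each had a lowest WT_D reading of 0. The nearest genes were not ranked again without that WT_D sample.

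**Figure D4:**
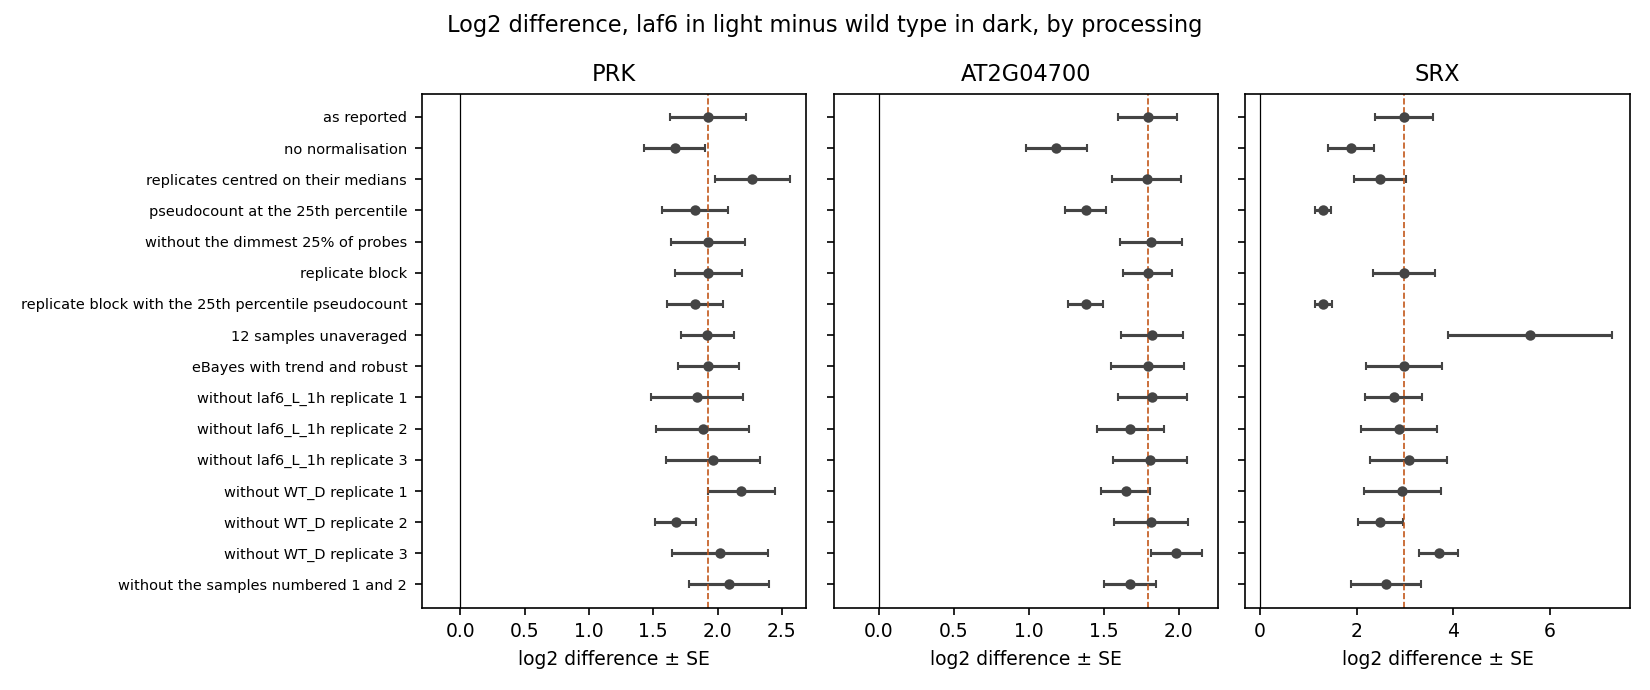
Log2 difference ± SE, laf6_L_1h minus WT_D, of PRK, AT2G04700 and SRX under each processing, with a dashed line at the value as reported. Every point lies above 0, within 1.67 to 2.27 for PRK, 1.19 to 1.98 for AT2G04700 and 1.31 to 5.59 for SRX, which has no point without the dimmest 25% of probes.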

How the data were processed

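Expression arrays of 12 total RNA samples were analysed as 6 laf6_L_1h and 6 WT_D samples, grouped by their titles. The deposited file holds 1 linear intensity per probe and sample. The background correction and scaling behind these intensities are not given in the sources used here. Probes were named through the platform annotation and TAIR10.1 gene names, which matched 690 of 692 probes of 1 gene. Consecutive numbers of a group correlated at 0.10 to 0.57 in their deviations from the group mean (1387 probes with a mean intensity over 0.3, log2 with a pseudocount) and other pairs of a group at -0.52 to -0.09. Readings were therefore averaged in pairs, although numbers 1 and 2 were the least close, at 0.10 in laf6_L_1h and 0.19 in WT_D. Samples of the same number correlated across groups at 0.33 to 0.65, and averaged replicates of the same number at 0.62, 0.48 and 0.34. The numbers may thus pair the samples across groups, from the values and not the labels. The main fit had no term for this pairing, which entered only as the replicate block. Zeros were set to the lowest positive value, values were taken to log2 and quantile normalised, and the groups were fitted with limma 3.58.1 in R 4.3.3 (lmFit, eBayes, Benjamini-Hochberg over 3439 probes). The fit was tested on simulated data.

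The 4 genes and the gene lists were chosen with earlier results of these data known. Named are the 4 genes, every measured gene of the 5 pathway lists, up to 3 called genes of each other list, and the 3 probes of 1 gene most like each of PRK, AT2G04700 and SRX. PSAN was named as the measured green tissue marker, after its values were seen. Alternatives changed the normalisation, the treatment of zeros, the filter, the averaging, the block, the eBayes settings and the replicates.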

Additional observations from a re-analysis of the deposited data

Results flagged for a closer look

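Of 29 groups of 6 readings, over 15 named genes, 4 had a reading whose gap to its neighbour exceeded Dixon's critical share of the group's range. PSAN, named as a tissue marker, was not part of this check. Chance would give about 1 in 20 groups if readings were independent and normally distributed. Paired readings and readings at 0 are not, so no excess is read from this count. PRK in laf6_L_1h sample 5 was at 1.58, below the 2.02 to 2.25 of the other readings of that group, and still above all WT_D readings. SBPASE in laf6_L_1h sample 6 was at 0.357, where the other readings were listed at 0. AT3G52960 in laf6_L_1h sample 2 was at 0.170, above the 0.0334 to 0.0523 of the others. AT5G33390 in laf6_L_1h sample 1 was at 0.00641, below the 0.0526 to 0.0714 of the others.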

How the results depend on the processing

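PRK, AT2G04700 and SRX kept a positive log2 difference in each setting that gave them a value (16, 16 and 15 settings), and limma called them in 10, 12 and 4 of these. The genes were selected on these same samples, so these counts describe the processing only and are no evidence of a difference. Calls over all probes in most of these settings are given below. PRK stayed within 1.67 to 2.27, no further from its main value of 1.93 than the residual SD of that fit on the log2 scale. AT2G04700 had 1.19 without normalisation and 1.38 with the 25th percentile pseudocount, alone or with the replicate block. SRX had 1.88 without normalisation, 1.31 with the pseudocount, alone or with the replicate block, and 5.59 with the 12 samples unaveraged. In the last, its reading at 0 and its other low WT_D readings were not averaged. SRX was dropped by the filter on dim probes. Leaving out each replicate gave 1.67 to 2.19 for PRK, 1.65 to 1.98 for AT2G04700 and 2.49 to 3.70 for SRX, and 0 to 1 SBPASE readings above 0, with 0 without laf6_L_1h replicate 3.

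Of the 7 measured pathway genes limma called 2, both selected on these values, beside 9.68% of all probes. It called 0 with the replicate block, 3 with the pseudocount, 2 with pseudocount and block together, and 0 without the samples numbered 1 and 2, a setting chosen after seeing the data, as was the count itself. Leaving out each replicate gave 0 to 2, with 0 without laf6_L_1h replicate 2 and 1 without laf6_L_1h replicate 1 or 3 or WT_D replicate 2. Over the array limma called 188 higher and 145 lower. The numbers were 114 higher against 360 lower with no normalisation, 208 and 45 with replicates centred on their medians, 4 and 9 with the replicate block, 260 and 209 with the pseudocount, 174 and 121 with pseudocount and block together, 353 and 421 with the 12 samples unaveraged, 273 and 231 with trend and robust eBayes, and 21 and 31 without numbers 1 and 2. With a replicate left out, and so fewer samples, between 59 and 113 were higher and between 32 and 81 lower. Otherwise the cause was not tested. The block took the call of PRK and AT2G04700 with the floor for zeros, and that of SRX with the pseudocount. NTRC, AT3G52960 and AT5G58330 were not called after normalisation with that floor, with or without the block. Values near 0 are the limit for SRX and SBPASE.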
